A study of Mus musculus with 6 samples.

Results

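Semaphorins, plexins, ephrins, Eph receptors, Slits, Robos, netrins and Unc5 receptors are ligands and receptors that steer migrating cells and growing axons and vessels, and 68 of the 56196 genes in the count tables belong to them. They were chosen by mouse gene symbol alone: Sema3 to Sema7, the plexins, Plxdc1 and Plxdc2, the ephrins, the Eph receptors, Slit1 to Slit3, Robo1 to Robo4, Ntn1 to Ntn5 and Unc5a to Unc5d. Polyadenylated RNA of 6 mouse osteosarcomas was sequenced, and reads were counted per gene. In 3 tumours, called TKO, the genotype was Osx1-Cre;Rb1lox/lox;p53lox/lox;SKP2-/-, and in the other 3, called DKO, it was Osx1-Cre;Rb1lox/lox;p53lox/lox. Both groups therefore shared the Cre driver, which acts in cells that express the osteoblast transcription factor Osx1 (Sp7), and the floxed Rb1 and p53 alleles, so that SKP2 status was the labelled difference. SKP2 is the substrate-binding subunit of a ubiquitin ligase that marks cell cycle inhibitors for degradation. Replicate 1 was male and replicates 2 and 3 were female in each group. The titles carry a different code for each tumour, but the labels do not state separate mice within a sex, so the p-values speak only for the spread among these libraries, which may be in part technical.

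Semaphorins signal mainly through plexins, with neuropilins as co-receptors for most secreted class 3 members; ephrins signal through Eph receptor tyrosine kinases at cell contacts, in both directions; Slits act through Robos; and netrins through Unc5 receptors and DCC. In mouse bone, ephrin-B2 on osteoclasts and EphB4 on osteoblasts signal to each other, Sema4D made by osteoclasts acts on plexin-B1 of osteoblasts, and Sema3A acts through neuropilin-1. Several members, among them Robo4, Plxnd1, Unc5b and Efnb2, are also known from blood vessels.

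Start regions of Efna1, Sema4d and Robo4, 3 of the 5 genes called different between the groups, are shown first, because the results below turn on them: those of Efna1 and Sema4d in which a searched motif lay outside exons, and that of Robo4, which had 0 counts in DKO. The regions of Ephb1 and Sema3d, which hold none of the motifs, are not shown. Sequences are from RefSeq, build GRCm38.p6, read on the gene's own strand from 5′ to 3′ and ending at or before an annotated start. Capitals mark a match to 1 of 6 motifs searched on both strands in the 250 bases before each start: the E-box CACGTG and its part ACGTG, which overlap, the AP-1 motif TGANTCA, the GC box GGGCGG, the TATA box TATAAA, and GCGGGAA, as found in E2F sites. Bases that lie in annotated exons were left out. The Efna1 region, chr3:89279646-89279895 on the minus strand, lies in an intron before the second start listed for the gene and holds GGGCGG 66 and 55 bases before that start:
Efna1, second start: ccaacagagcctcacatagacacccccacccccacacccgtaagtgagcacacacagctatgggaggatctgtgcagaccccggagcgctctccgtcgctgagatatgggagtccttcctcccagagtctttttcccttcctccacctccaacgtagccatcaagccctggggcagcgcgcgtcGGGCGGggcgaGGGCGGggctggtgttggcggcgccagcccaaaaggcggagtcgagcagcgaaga
Both Sema4d regions lie inside the gene and outside its exons, on the minus strand. The first, chr13:51748920-51749060, holds TGANTCA 239 bases before the second listed start, and the other, chr13:51739447-51739696, holds GGGCGG on the opposite strand 14 bases before a start further into the gene:
Sema4d, second start: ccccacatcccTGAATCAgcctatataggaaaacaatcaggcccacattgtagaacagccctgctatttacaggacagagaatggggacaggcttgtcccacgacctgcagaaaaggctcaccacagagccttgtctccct
Sema4d, inner start: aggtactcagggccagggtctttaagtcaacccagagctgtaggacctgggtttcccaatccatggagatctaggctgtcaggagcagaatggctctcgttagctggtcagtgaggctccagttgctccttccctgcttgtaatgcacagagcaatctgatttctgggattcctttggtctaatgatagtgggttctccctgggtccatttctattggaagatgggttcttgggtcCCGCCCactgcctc
The Robo4 region, chr9:37401722-37401896 on the plus strand, directly before the gene, holds none of the 6 motifs:
Robo4: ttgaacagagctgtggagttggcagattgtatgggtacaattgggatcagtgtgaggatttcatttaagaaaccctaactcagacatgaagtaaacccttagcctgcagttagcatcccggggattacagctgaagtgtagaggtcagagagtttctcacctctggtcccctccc

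Start regions were found for 57 of the 68 genes, 73 regions in all. GGGCGG was in 69.86% of them, against 55.37% of the regions of all genes tested and 32.74% of all 32851 regions. In the same order, ACGTG was in 16.44%, 20.99% and 16.57%, and TGANTCA in 4.11%, 4.77% and 6.75%. CACGTG was in 5.48%, 8.11% and 6.02%, TATAAA in 2.74%, 6.86% and 12.37%, and GCGGGAA in 2.74%, 6.56% and 3.82%. The 5 genes called different have 8 regions, of which 3 hold GGGCGG, 1 holds ACGTG, 1 holds TGANTCA and 0 hold any of the other motifs. These shares describe letters in a fixed window.

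Depth was 17063231 to 22488819 gene counts per library. Skp2 had 0 counts in each TKO tumour, against 20, 64 and 46 counts in DKO1, DKO2 and DKO3. Both floxed genes had more reads in TKO, Rb1 with 62.9 ± 25.2 CPM in TKO and 20.6 ± 2.37 CPM in DKO (adjusted p = 0.0419 in edgeR) and Trp53 with 22.7 ± 14.7 CPM in TKO and 6.75 ± 0.674 CPM in DKO (adjusted p = 0.115; SD, n = 3 each); counts over a whole gene do not check the deletion of a part. TKO1 stood apart: the correlation of log2 counts-per-million across genes was 0.83 between TKO1 and TKO2, 0.81 between TKO1 and TKO3, 0.92 between TKO2 and TKO3, and 0.93 to 0.95 within DKO. The labelled tissue was checked by 9 osteoblast and osteocyte genes, which summed to 3240, 34190 and 38900 CPM (counts-per-million, scaled by TMM) in TKO1, TKO2 and TKO3, against 10310 to 13510 CPM in DKO. Col1a1 carried most of the DKO sum, with 9947 to 11760 CPM there, and was at 209 CPM in TKO1. Most of the TKO1 sum came from Spp1, with 2911 CPM, while Alpl had 2 counts and Ibsp 0 counts in TKO1. Dmp1 and Phex were higher in TKO1 than in any DKO tumour. Runx2 was at 58.4 to 242 CPM in TKO and 83.3 to 97.1 CPM in DKO. Sp7 was sparse outside TKO2 and TKO3, with 0 counts in TKO1, 4280 in TKO2 and 8501 in TKO3, against 160, 0 and 7 counts in DKO1, DKO2 and DKO3. Markers of other cell types moved with the groups. All 10 blood endothelial markers rose in TKO, with summed levels of 181 to 918 CPM in TKO and 9.86 to 11.4 CPM in DKO, where Emcn and Cldn5 had 0 counts. Of 9 macrophage markers 8 rose, with summed levels of 762 to 2439 CPM in TKO and 8.62 to 124 CPM in DKO, where C1qa, C1qb and C1qc had 0 counts. Skeletal muscle markers rose in 6 of 8 tested, from a list with summed levels of 397 to 10310 CPM in TKO and 3.64 to 16.4 CPM in DKO. The part of these cell types in the values below was not tested, and in bulk tumour RNA fewer cells of a type and less RNA per cell cannot be told apart.

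**Figure D1:**
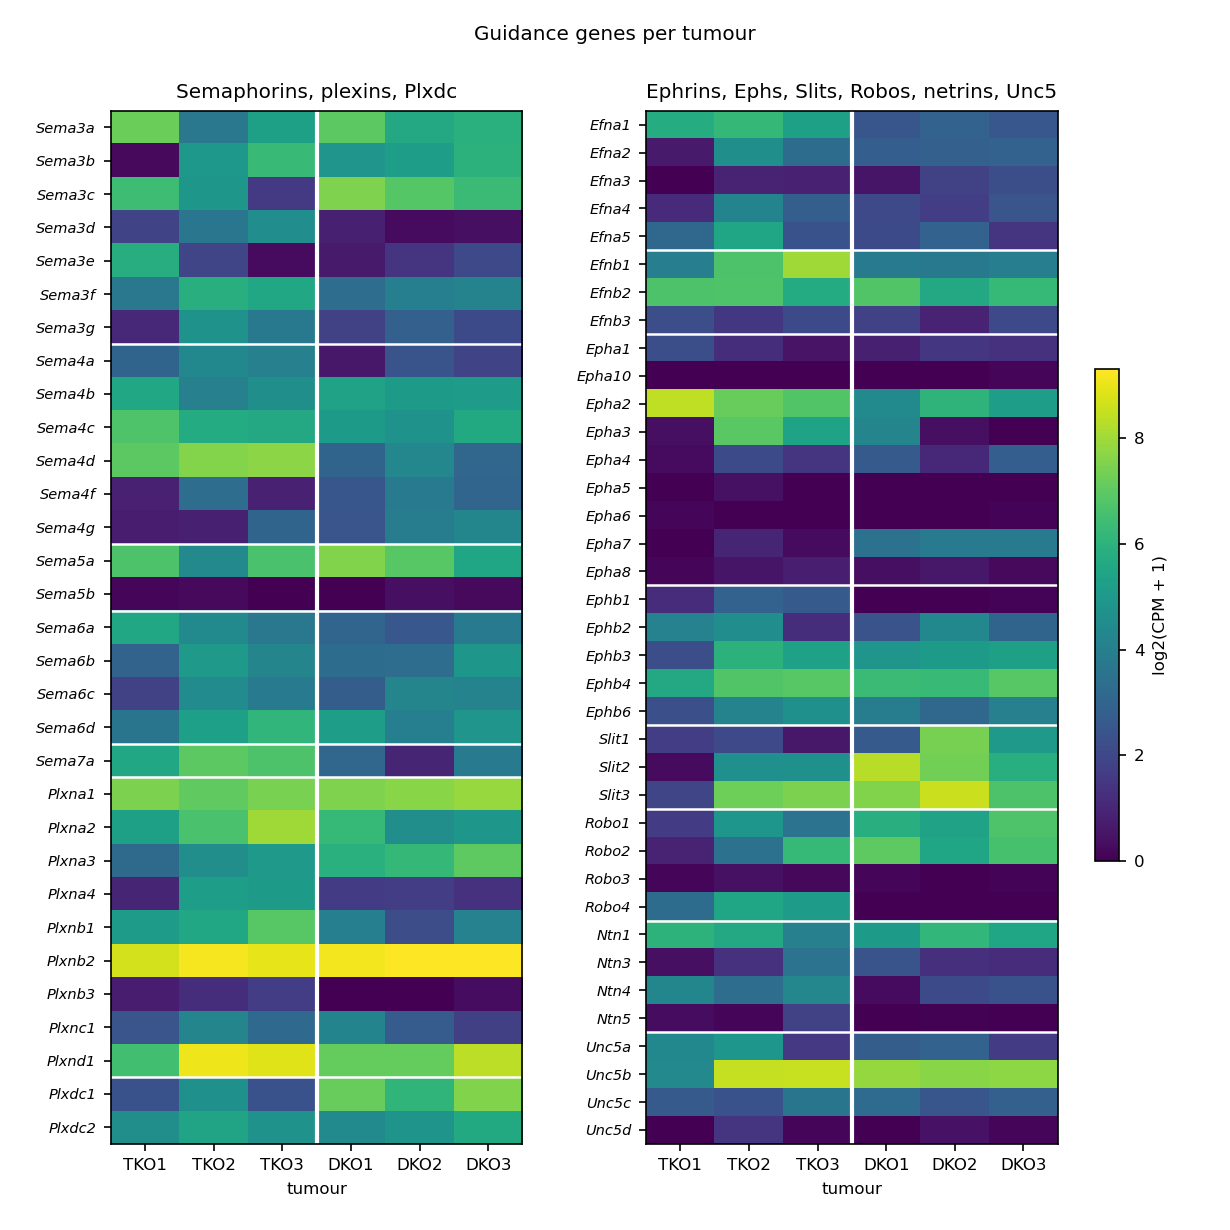
Level of each of the 68 guidance genes (rows, grouped by family) in each tumour (columns, TKO left of DKO), as log2(CPM + 1). Plxnb2 is bright in all 6 tumours, Robo4 is at 0 in the 3 DKO tumours, and Slit2, Slit3, Robo1 and Robo2 are dark in TKO1.

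Of the 68 genes, 55 had at least 1 count in every tumour and 37 had at least 1 CPM in every tumour. After the filter on low counts 60 could be tested. Another 8 (Epha5, Epha6, Epha8, Epha10, Ntn5, Robo3, Sema5b and Unc5d) could not, none of them above 2.6 CPM in any tumour. In edgeR's quasi-likelihood test with Benjamini-Hochberg adjustment, 5 of the 60 (8.33%) passed an adjusted p of 0.05, against 7.36% of all 15361 genes tested. All 5 were higher in TKO, where the background was 4.89%, and 0 were lower, where it was 2.47%. The 5 were the ephrin Efna1, the semaphorins Sema4d and Sema3d, and the receptors Robo4 and Ephb1. Robo4, Ephb1 and Sema3d were under 1 CPM in every DKO tumour. They passed the filter through TKO alone and could only be called higher. With only genes at 1 CPM or more in both groups, edgeR called Efna1 and Sema4d of 54 guidance genes. Of all 13246 genes, 74 were then higher and 84 lower. At an unadjusted p under 0.05 there were 21 (35%; 15 higher, 6 lower), against 25.0% of all genes. DESeq2 called 13 higher and 6 lower (31.7%), where 18.8% of all genes were called, 11.6% higher and 7.22% lower. Limma-voom called 5 higher and 2 lower (11.7%), where 7.23% of all genes were called, 4.28% higher and 2.95% lower. The share that edgeR called was near the background, and the shares past the other rules were above it; none of these shares was tested. The median log2 fold change, TKO over DKO, was 0.35 over the 60 genes and 0.09 over all genes, and the median size of the log2 fold change was 1.55 over the 60 and 0.65 over all genes.

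**Figure D2:**
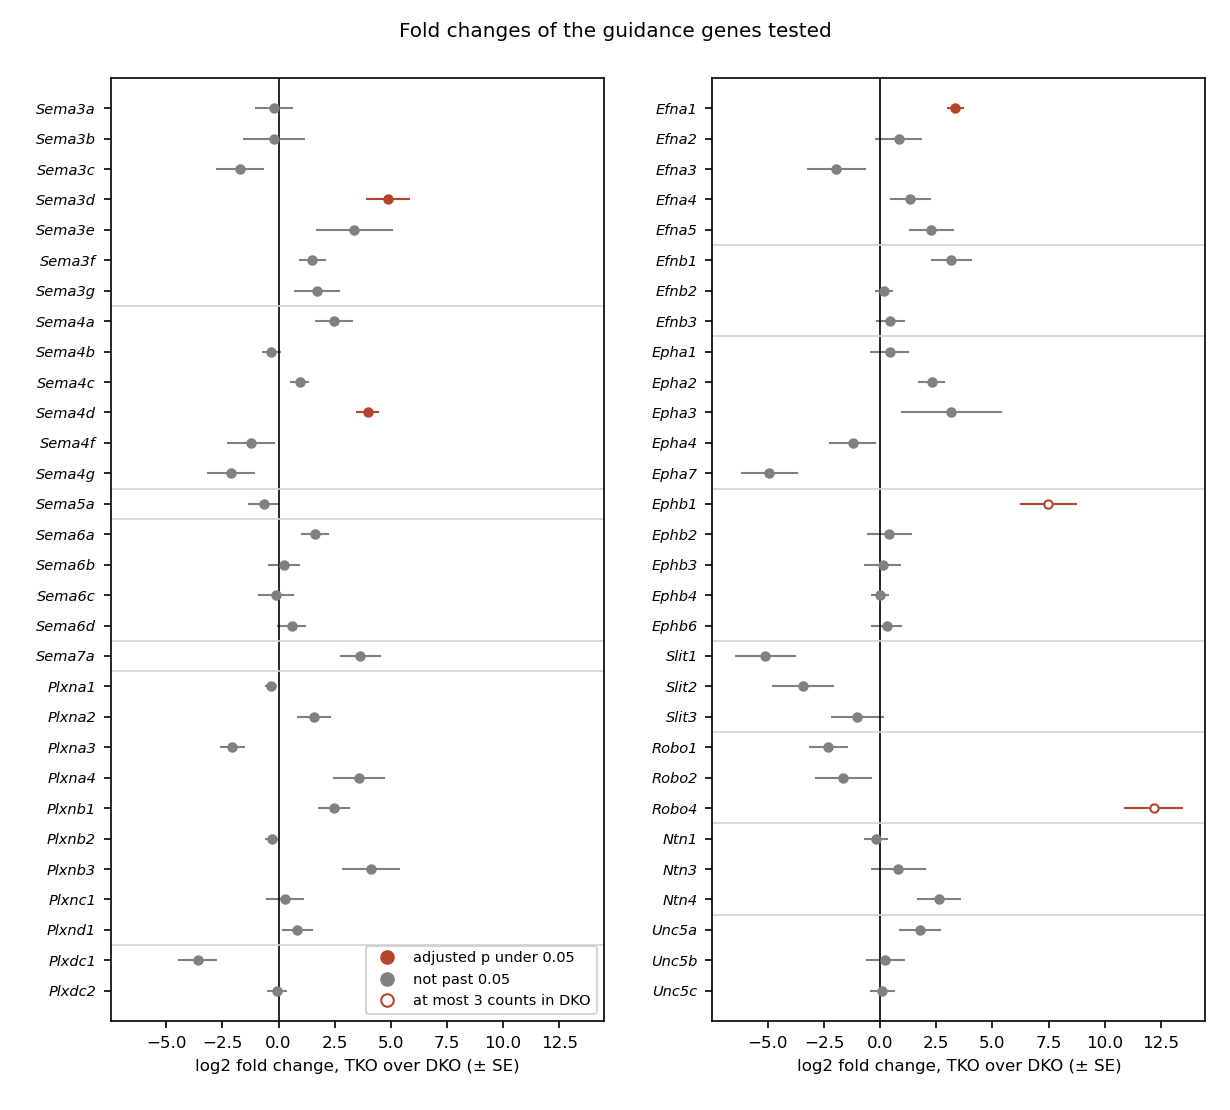
Log2 fold change, TKO over DKO, with its SE for the 60 guidance genes tested, by family (left, semaphorins to Plxdc; right, ephrins to Unc5). The 5 red points passed an adjusted p of 0.05; open points (Robo4 and Ephb1) had at most 3 counts in DKO in all, so the place of those points depends on the prior count of the fit.

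Among the class 4 semaphorins, which are membrane-bound, Sema4d (ENSMUSG00000021451.16, chromosome 13, 51685529 to 51793747, minus strand) rose. It had 125, 192 and 206 CPM in TKO1, TKO2 and TKO3, against 6.97, 19.1 and 7.36 CPM in DKO1, DKO2 and DKO3. The lowest TKO tumour lay well above the highest DKO tumour. The means were 174 ± 43.2 CPM in TKO and 11.1 ± 6.87 CPM in DKO (SD, n = 3 each), 15.7-fold higher in TKO (log2 fold change 3.97, SE 0.52, adjusted p = 0.0144 in edgeR). Sema4D is made by T cells and, in mouse, by osteoclasts, and binds plexin-B1. The T cell markers Cd3e and Cd3g were near 0, with means of 0.176 and 0.757 CPM in TKO and 0.0341 and 0 CPM in DKO. T and B lymphocyte markers together summed to 55.8 to 141 CPM in TKO and 0.0996 to 0.46 CPM in DKO, most of it from the antibody genes Igkc and Jchain. Osteoclast markers summed to 51.8 to 9848 CPM in TKO and 790 to 1905 CPM in DKO. Sema4d was at 125 CPM in TKO1, where osteoclast markers summed to 51.8 CPM, the lowest of the 6 tumours. Ctsk carried most of each DKO sum, with 441 to 1834 CPM, and was at 5.75 CPM in TKO1. Mmp9 and Atp6v0d2 were also lower in TKO1 than in any DKO tumour. Acp5, Ocstamp and Calcr were higher there than in any DKO tumour, with Acp5 at 31.5 CPM against 0.0594 to 1.635 CPM. Macrophage marker sums, like the lymphocyte sums, were higher in every TKO tumour than in any DKO tumour, as Sema4d was. The lowest macrophage sum among TKO tumours was 762 CPM, and the highest among DKO tumours was 124 CPM. The part of lymphocytes, osteoclasts and macrophages in the Sema4d values was not tested.

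Other class 4 members did not pass. Sema4c, a ligand of plexin-B2, had 106, 52.1 and 47.5 CPM in the TKO tumours, against 32.7, 25.9 and 49 CPM in the DKO tumours, and the groups overlapped (log2 fold change 0.94, SE 0.42, adjusted p = 0.222). Sema4b had 46, 15.7 and 23.7 CPM in TKO and 40.5, 32.8 and 34 CPM in DKO. Sema4a had 7.09, 19.5 and 15.6 CPM in TKO and 0.498, 4.34 and 2.73 CPM in DKO, with no overlap (log2 fold change 2.47, SE 0.83, adjusted p = 0.126). Per kilobase of exon, the 6 class 4 members together summed to 44.5 to 49.1 CPM in TKO and 16.7 to 21.6 CPM in DKO. Most of that gap came from Sema4d, with means of 22.7 CPM per kilobase in TKO and 1.45 in DKO. Sema4b, Sema4f and Sema4g had lower means in TKO and did not pass; those of Sema4f and Sema4g were 3.59 ± 4.83 and 2.79 ± 3.63 CPM in TKO, against 8.44 ± 4.57 and 12.2 ± 6.98 CPM in DKO (SD, n = 3 each).

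Among the secreted class 3 semaphorins, Sema3d (ENSMUSG00000040254.11, chromosome 5, 12383385 to 12588948, plus strand) rose from a low level. It had 2.79, 11.7 and 22.7 CPM in the TKO tumours, against 0.747, 0.204 and 0.297 CPM in the DKO tumours. The groups did not overlap, but TKO1 lay closest to DKO. The means were 12.4 ± 9.99 CPM in TKO and 0.416 ± 0.29 CPM in DKO (SD, n = 3 each), 29.8-fold higher in TKO and resting on 24 DKO counts in all (log2 fold change 4.87, SE 0.99, adjusted p = 0.0353 in edgeR).

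The other 6 class 3 members overlapped between the groups. Sema3a and Sema3e lie on chromosome 5 in the order Sema3d, Sema3a, Sema3e, with 536465 bases between the first pair and 422710 between the other. Sema3a, which protects bone in mouse, had 150, 12.2 and 37.7 CPM in TKO and 124, 48.1 and 59.3 CPM in DKO. Sema3e, the ligand of plexin-D1, had 54.1, 2.89 and 0.204 CPM in TKO and 0.598, 1.74 and 3.21 CPM in DKO, so its higher TKO mean was set by TKO1. These neighbours thus had different patterns over the tumours. Sema3c had 84.2, 29.1 and 1.99 CPM in TKO and 180, 115 and 80.6 CPM in DKO (adjusted p = 0.368). Sema3b had 0.167, 30 and 78.9 CPM in TKO and 28.1, 35.8 and 62.2 CPM in DKO, and its lowest and its highest values were both in TKO tumours. Sema3f, which signals through neuropilin-2, had 12.1, 56.5 and 47.5 CPM in TKO and 8.96, 15 and 16.9 CPM in DKO, with TKO1 inside the DKO range (log2 fold change 1.51, SE 0.59, adjusted p = 0.176).

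Of the other semaphorins, Sema7a, a lipid-anchored member that acts on integrins and plexin-C1, was the most different. It had 45.9, 125 and 104 CPM in TKO, against 7.47, 0.971 and 13.5 CPM in DKO. No TKO tumour overlapped DKO, but the test was missed (log2 fold change 3.64, SE 0.91, adjusted p = 0.0608); limma-voom called it. Sema5a had 103, 19.9 and 98 CPM in TKO and 187, 117 and 43.6 CPM in DKO, while its relative Sema5b had 6 counts in TKO and 9 in DKO. Sema6b had 6.88, 31.3 and 17.7 CPM in TKO and 8.81, 9.09 and 29.2 CPM in DKO, and Sema6d had 11.4, 36.7 and 68.7 CPM in TKO and 35.2, 15.1 and 28 CPM in DKO. Neither separated the groups (adjusted p = 0.861 and 0.618 in edgeR). Over the 19 semaphorins tested, 2 rose and 17 did not pass (10.53% called, against 7.36% of all genes tested).

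**Figure D3:**
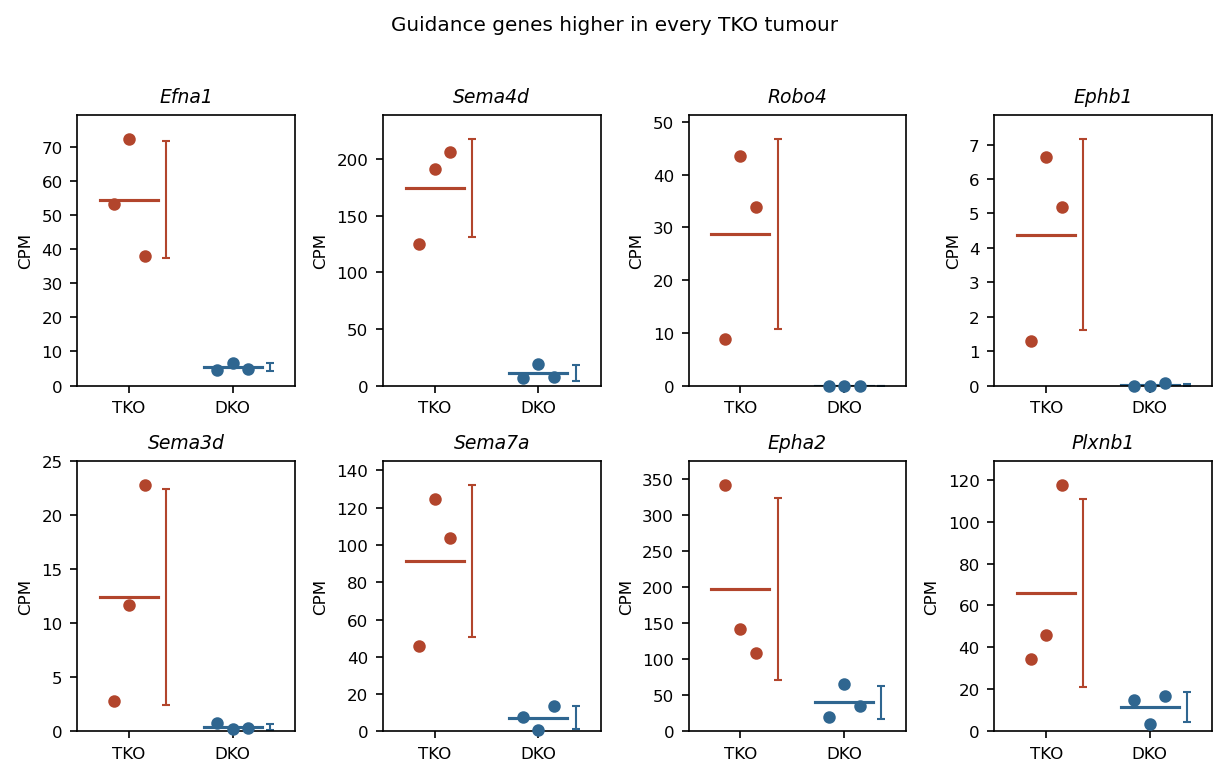
CPM of 8 guidance genes in each tumour (points, replicates 1, 2 and 3 from left to right) with the group mean (line) and SD (bar, ended at 0 where it would pass below), TKO left of DKO. Efna1, Sema4d, Robo4, Ephb1 and Sema3d passed an adjusted p of 0.05 in edgeR, and Sema7a, Epha2 and Plxnb1 did not. The 8 were picked from the 11 of 60 genes tested with every TKO value above every DKO value. The lack of overlap in the panels is thus how they were chosen. Of all genes tested, 17.3% had such values.

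The plexins, the receptors of semaphorins, included the most abundant guidance gene. Per kilobase of exon Plxnb2 had the highest mean level of the 68 in both groups. Of the 9 plexins 0 passed edgeR's test, where 7.36% of all genes tested did. At an unadjusted p under 0.05 there were 4 plexins, against 25.0% of all genes. DESeq2 called 4 and limma-voom 0 plexins, against 18.8% and 7.23% of all genes. Plxnb2 had 407, 581 and 492 CPM in TKO and 560, 625 and 633 CPM in DKO, and the groups overlapped slightly (log2 fold change -0.3, SE 0.29, adjusted p = 0.559). Plxnd1 had 88, 533 and 462 CPM in TKO and 138, 138 and 335 CPM in DKO. TKO1 was the lowest of the 6 tumours, and TKO2 and TKO3 were the highest. Plxna1, which pairs with neuropilins and has a role in mouse osteoclasts, had 176, 131 and 170 CPM in TKO and 180, 198 and 232 CPM in DKO; it was lower in every TKO tumour, by a small margin (log2 fold change -0.35, SE 0.26, adjusted p = 0.442).

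Among the other plexins, Plxnb1, the receptor of Sema4D, had 34.6, 45.7 and 117 CPM in TKO, against 15, 3.63 and 16.7 CPM in DKO (log2 fold change 2.48, SE 0.72, adjusted p = 0.0875). Its TKO values were all higher. Plxnb3 was near absent in DKO, with 0.625, 1.35 and 2.19 CPM in TKO and 0, 0 and 0.238 CPM in DKO (adjusted p = 0.111). Plxna4 had 0.959, 34.9 and 33 CPM in TKO and 2.04, 2.25 and 1.48 CPM in DKO, so TKO1 lay below every DKO tumour and the other TKO tumours far above (adjusted p = 0.115; 0.00296 without TKO1, over a range of 0.00296 to 0.47 under all alternatives). Plxna3, which with neuropilin-2 binds Sema3F, was the plexin furthest down, with 8.21, 23 and 31.1 CPM in TKO and 59.7, 71.6 and 128 CPM in DKO (log2 fold change -2.06, SE 0.55, adjusted p = 0.073). The TKO and DKO values of Plxna3 did not overlap.

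Plxdc1, which encodes a protein with a plexin domain and was described as a tumour endothelial marker in human, had 4.04, 24.3 and 4.03 CPM in TKO, against 140, 67.9 and 185 CPM in DKO. Every TKO tumour was below every DKO tumour, 12.1-fold lower in the mean, but the test was missed (log2 fold change -3.6, SE 0.86, adjusted p = 0.0531); DESeq2 and limma-voom called it. Its direction was opposite to that of the 10 blood endothelial markers. Plxdc2 had 23, 42.6 and 26.7 CPM in TKO and 20.6, 26.9 and 49.2 CPM in DKO, and overlapped.

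Efna1, a lipid-anchored ephrin that binds EphA2 and other EphA receptors, had the smallest adjusted p of the 60. Efna1 (ENSMUSG00000027954.9, chromosome 3, 89271733 to 89281142, minus strand) had 53.1, 72.2 and 38.1 CPM in TKO, against 4.63, 6.64 and 4.75 CPM in DKO. Its TKO values varied little and lay far above DKO. The means were 54.5 ± 17.1 CPM in TKO and 5.34 ± 1.13 CPM in DKO (SD, n = 3 each), 10.2-fold higher in TKO (log2 fold change 3.35, SE 0.38, adjusted p = 0.0118 in edgeR). The next genes on that strand are Efna3 and Efna4, with 32756 bases between Efna1 and Efna3 and 10424 between Efna3 and Efna4 and no coding gene in either gap. Efna3 had 0, 0.916 and 0.816 CPM in TKO and 0.448, 2.61 and 3.68 CPM in DKO. Efna4 had 1.21, 17.5 and 6.07 CPM in TKO and 3.14, 2.25 and 4.45 CPM in DKO. Neither neighbour separated the groups, and TKO1, in which Efna1 was high, had the lowest value of both. Efna2 had 0.584, 23.6 and 8.72 CPM in TKO and 5.93, 6.23 and 6.53 CPM in DKO.

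The ephrin-B ligands are transmembrane proteins. Efnb1, which is X-linked, had 14.7, 105 and 249 CPM in TKO, against 13.5, 12.6 and 14.8 CPM in DKO. TKO1 lay inside the narrow DKO range, and TKO2 and TKO3 far above it (log2 fold change 3.17, SE 0.90, adjusted p = 0.0833; 0.00511 without TKO1, over a range of 0.00184 to 0.248 under all alternatives). Efnb2 had 104, 106 and 51.3 CPM in TKO and 108, 48.2 and 75 CPM in DKO (log2 fold change 0.17, SE 0.42). Its receptor Ephb4 had 48.4, 110 and 116 CPM in TKO and 80, 78.1 and 118 CPM in DKO (log2 fold change -0.01, SE 0.39). For this ligand and receptor of mouse bone and vessel walls no difference was detectable beyond the spread (adjusted p = 0.828 and 0.989 in edgeR).

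Among the Eph receptors, Ephb1 (ENSMUSG00000032537.15, chromosome 9, 101922128 to 102354693, minus strand) rose. It had 31, 138 and 102 counts in TKO, against 0, 0 and 1 counts in DKO. As CPM this was 1.29, 6.66 and 5.2 in TKO and 0, 0 and 0.0594 in DKO. The gene was thus low in TKO and near the limit of detection in DKO. The ratio of pooled CPM was 238, with a 95% counting interval of 42.4 to 9433, and the adjusted p was 0.0243 in edgeR. Ephb1 shares 152 exon bases with the transcript Gm26846 on the other strand, and the counts do not keep strand.

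Epha2, a receptor of ephrin-A1, had 341, 141 and 108 CPM in TKO, against 20.7, 65.5 and 34.9 CPM in DKO. It was higher in every TKO tumour, most in TKO1, where per kilobase it was the highest guidance gene (log2 fold change 2.29, SE 0.60, adjusted p = 0.0693). Epithelial markers were also highest in TKO1, and their part in the Epha2 values was not tested. Epha7 had 0, 0.965 and 0.204 CPM in TKO, against 10.4, 12.9 and 12.8 CPM in DKO, 30.9-fold lower in the mean (log2 fold change -4.94, SE 1.27, adjusted p = 0.0654). DKO values of Epha7 were nearly alike. Epha3 had 0.292, 119 and 41.3 CPM in TKO and 17.6, 0.307 and 0 CPM in DKO, so within each group it was on in some tumours and near 0 in others. Ephb3 had 3.67, 62.7 and 39.4 CPM in TKO and 28.1, 32.3 and 37.8 CPM in DKO. Of the 10 Eph receptors tested, 1 rose and 9 did not pass (10% called, against 7.36% of all genes tested).

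Robo4 (ENSMUSG00000032125.20, chromosome 9, 37401897 to 37415115, plus strand), the Robo receptor of blood vessels, had 210, 904 and 665 counts in TKO, against 0, 0 and 0 counts in DKO. As CPM it was 8.75, 43.6 and 33.9 in TKO. With 3 counts over the whole DKO group as the limit that a count of 0 allows, Robo4 was at least 521-fold higher in TKO, with an adjusted p of 0.0184 in edgeR. TKO1 had the least of both Robo4 and the blood endothelial markers, with marker sums of 181 CPM in TKO1 and 918 and 644 CPM in TKO2 and TKO3. The part of vessel cells in the Robo4 values was not tested. Robo3 lies 553 bases beyond the end of Robo4 on the other strand and had 13 counts in TKO and 3 in DKO.

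Of the 3 Slits and 3 Robos tested, Slit1, Slit2 and Robo1 had lower values in every TKO tumour, as did 15.6% of all genes tested. In edgeR 0 of these 3 passed, while all 3 had an unadjusted p under 0.05 and passed in DESeq2, and 0 passed in limma-voom. Of all genes tested, 7.36% passed in edgeR, 25.0% had such a p, and 18.8% and 7.23% passed in DESeq2 and limma-voom. The 3 were singled out by their values, so these counts are not a result about the families. Slit2 had 0.208, 24.7 and 24.8 CPM in TKO, against 317, 160 and 57.8 CPM in DKO (log2 fold change -3.43, SE 1.39, adjusted p = 0.186; 0.0473 without TKO1, over a range of 0.027 to 0.412 under all alternatives). Slit1 had 2.25, 3.14 and 0.51 CPM in TKO, against 5.23, 169 and 30.8 CPM in DKO (adjusted p = 0.0719). Slit3, which osteoclasts make in mouse, had 2.88, 152 and 177 CPM in TKO and 187, 379 and 104 CPM in DKO, and TKO2 and TKO3 lay inside the DKO range. Robo1, the main receptor of Slit2, had 2.08, 28.5 and 10.8 CPM in TKO, against 58, 39.7 and 106 CPM in DKO (log2 fold change -2.3, SE 0.88, adjusted p = 0.167). Robo2, the next coding gene on chromosome 16, had 0.875, 10.2 and 74.3 CPM in TKO and 126, 43.9 and 96.4 CPM in DKO. Slit3 and Robo2 overlapped between the groups. TKO1 had the lowest value of the 6 for Slit2, Slit3, Robo1 and Robo2. Fibroblast markers summed to 1140 to 10060 CPM in TKO and 6755 to 14900 CPM in DKO, with the lowest sum in TKO1. Their part in these values was not tested.

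**Figure D4:**
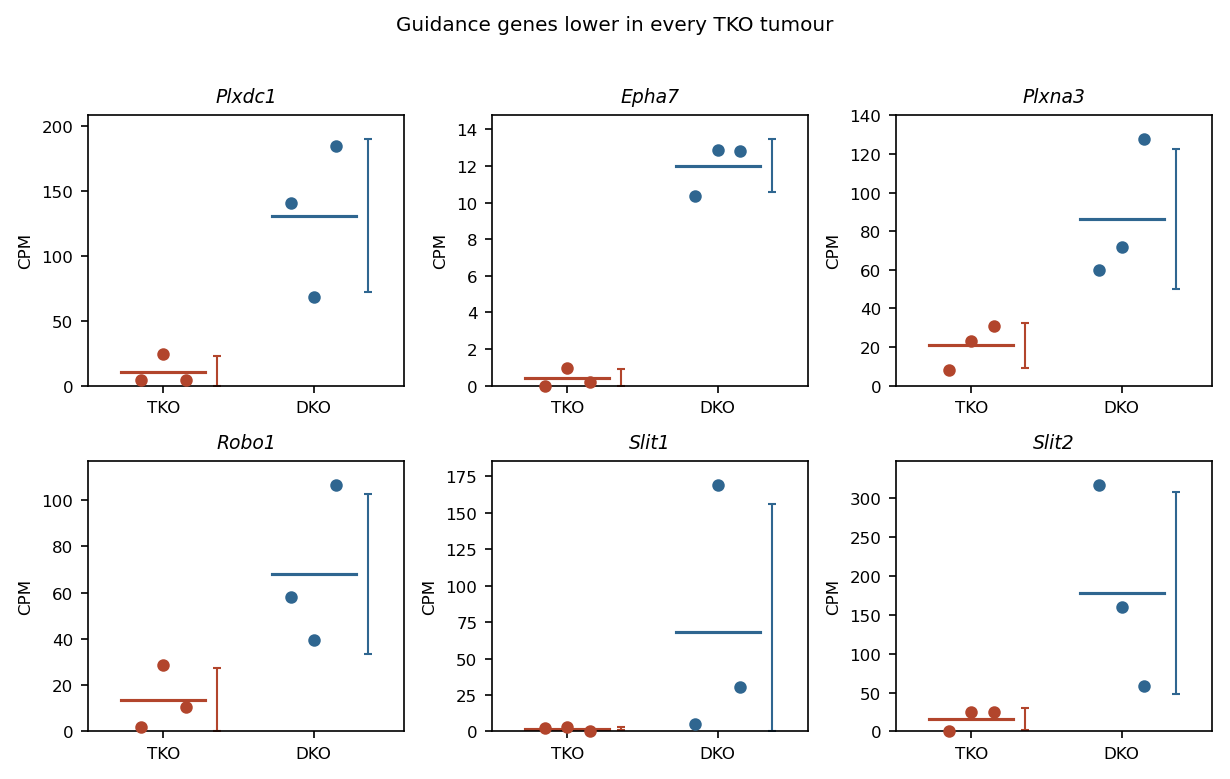
CPM of the 6 guidance genes with an unadjusted p under 0.05 and a log2 fold change below -2, in each tumour (points, replicates 1, 2 and 3 from left to right), with the group mean (line) and SD (bar, ended at 0), TKO left of DKO. Every TKO tumour lies below every DKO tumour in each panel, which the choice by p and size makes likely. Of the 60 genes tested 7 had such values, against 15.6% of all genes. In edgeR 0 of the 6 passed an adjusted p of 0.05, while all 6 passed in DESeq2 and 2 (Epha7 and Plxdc1) in limma-voom. Of all genes, 2.47%, 7.22% and 2.95% were called lower by edgeR, DESeq2 and limma-voom.

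Among the netrins, Ntn1 had 63.4, 48.7 and 15.6 CPM in TKO and 32.7, 69.9 and 43.3 CPM in DKO, and overlapped. Ntn4, which binds laminins of basement membranes, had 18.3, 9.02 and 18.6 CPM in TKO, against 0.199, 3.22 and 4.1 CPM in DKO (log2 fold change 2.61, SE 0.98, adjusted p = 0.158), with every TKO value higher. Unc5b, the netrin receptor known from vessels, had 19.6, 361 and 367 CPM in TKO and 227, 201 and 211 CPM in DKO. DKO was narrow, TKO1 lay far below it and the other TKO tumours above it. Unc5a had 19.2, 28.5 and 1.94 CPM in TKO and 5.63, 6.54 and 2.14 CPM in DKO (adjusted p = 0.285). Of the 3 netrins and 3 Unc5 receptors tested, 0 passed in edgeR, against 7.36% of all genes tested. Ntn4 alone had an unadjusted p under 0.05 and passed in DESeq2, against 25.0% and 18.8% of all genes. In limma-voom 0 passed, against 7.23%.

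The 26 members not given by this rule of level and size (some of which are named above as neighbours or relatives) include 19 that were tested, with log2 fold changes of -2.12 to 3.37 and adjusted p of 0.164 to 0.948 in edgeR. In all, 11 of the 60 genes had every TKO value above every DKO value and 7 had every TKO value below, 30% together, against 32.9% of all genes tested. Of the 60 genes tested, 4 were under 1 CPM in every DKO tumour and 2 in every TKO tumour, against 1500 and 893 of all 15361 genes tested.

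The guidance genes varied more between TKO tumours than between DKO tumours. The median SD of log2 CPM over the 60 genes was 1.42 in TKO and 0.74 in DKO, against 0.61 in TKO and 0.38 in DKO over all genes tested. The SD was larger in TKO for 50 of the 60 (83.3%), against 68% of all genes. TKO1 was the lowest of the 6 tumours for 25 of the 60 (41.7%), against 24.2% of all genes, and the highest for 8 (13.3%), against 23.7%. These shares are descriptions of 1 tumour and carry no test. Measured from the mean of TKO2 and TKO3 on the log2(CPM + 1) scale, the widest gaps of TKO1 were -5.79 for Epha3, -5.41 for Sema3b, -5.41 for Slit3 and 4.67 for Sema3e.

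**Figure D5:**
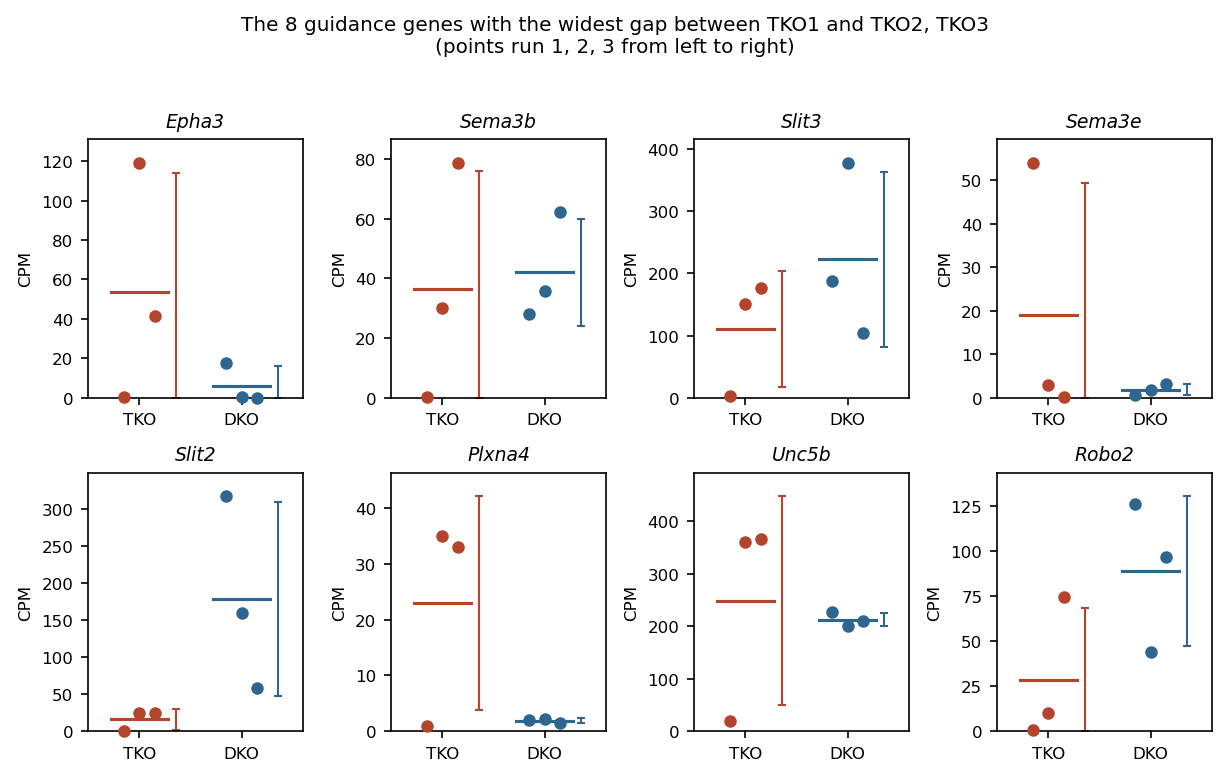
CPM of the 8 guidance genes whose TKO1 value lay furthest from TKO2 and TKO3 on the log2(CPM + 1) scale, a choice made after the values were seen, in each tumour (points, replicates 1, 2 and 3 from left to right), with the group mean (line) and SD (bar, ended at 0), TKO left of DKO. TKO1 lies below both other TKO tumours for 7 of the 8 and above them for Sema3e.

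Without TKO1, 11 of 61 genes tested were higher in TKO and 3 lower, where 14.6% of all genes were called, 9.61% higher and 4.94% lower. The higher ones were Efna1, Efnb1, Ephb1, Plxna4, Plxnb1, Robo4, Sema3d, Sema3f, Sema3g, Sema4d and Sema7a, and the lower ones Epha7, Plxna3 and Slit2, so all 5 genes called with TKO1 were called without it. TKO1 is also the only male TKO tumour, so sex and this tumour cannot be told apart. A fit with an interaction of sex and genotype, added after the values were seen, asked whether the TKO to DKO difference differed between the sexes. It rests on the only male tumour of each group, so its sizes are given and carry no test. The log2 fold change in female tumours minus that in male tumours ran from -7.15 for Sema3e to 14.8 for Epha3. Both sizes rest on few counts. Epha3 had 7 counts in TKO1 and 6 and 0 in DKO2 and DKO3, and Sema3e had 4 in TKO3 and 12 in DKO1.

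The calls depended on each DKO tumour. Leaving out DKO1, DKO2 or DKO3 left 0 of the guidance genes called by edgeR. At an unadjusted p under 0.05 there were 17 of 61, 15 of 60 and 18 of 61. Over all genes these were 3618 of 16486, 2971 of 16323 and 3017 of 16553. Of all genes, 27 were called higher and 12 lower without DKO1, 2 higher and 0 lower without DKO2, and 0 without DKO3. For Efna1 the log2 fold change was then 3.25, 3.52 and 3.28 and the adjusted p 0.0608, 0.0583 and 0.0614, over a range of 3.79e-14 to 0.0614 under all alternatives, and for Sema4d the log2 fold change was 3.71, 4.58 and 3.75 and the adjusted p 0.0644, 0.0535 and 0.0709, over a range of 1.26e-11 to 0.0709. Robo4 also missed without TKO3 (0.0505, range 3.87e-14 to 0.0695), Ephb1 without TKO2 (0.0578) or TKO3 (0.0597, range 2.25e-06 to 0.108), and Sema3d without TKO2 (0.078) or TKO3 (0.0825), by limma-voom (0.0803) and with sex as a covariate (0.0646, range 9.96e-07 to 0.14). Their fold changes kept their direction in every one of these fits. That was set in advance, since every TKO value of these genes lay above every DKO value.

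Among 64 co-receptors, adaptors and other partners, 57 could be tested, of which 2 rose and 1 fell (5.26%, against 7.36% of all genes). Arhgef15, which acts downstream of Eph receptors and is known from vessels, had 4.88, 20.3 and 24.8 CPM in TKO, against 0.199, 0.358 and 0.356 CPM in DKO (log2 fold change 5.75, SE 0.81, adjusted p = 0.0164). Cd72, the B cell receptor of Sema4D, had 3.83, 46 and 37.6 CPM in TKO, against 0.598, 0.613 and 0.297 CPM in DKO (log2 fold change 5.83, SE 1.02, adjusted p = 0.0267). On counts of 1 strand the log2 fold change of Cd72 was 2.53. Among the other partners of semaphorins, Fes, a tyrosine kinase, had 21.4, 64 and 55 CPM in TKO and 10.5, 16.1 and 22.7 CPM in DKO (adjusted p = 0.122). Rnd1, a small GTPase that binds plexins, had 8.38, 13.1 and 13.1 CPM in TKO and 11.2, 61.8 and 31.9 CPM in DKO (adjusted p = 0.166). Both overlapped between the groups. Among those of Eph receptors, Rgs3 had 25.6, 86.4 and 122 CPM in TKO and 36, 34.3 and 32.7 CPM in DKO (adjusted p = 0.223), and Vav3 had 6.54, 45.8 and 11 CPM in TKO and 57.9, 51.2 and 77.8 CPM in DKO (adjusted p = 0.23). As for Robo4, the blood endothelial markers moved with Arhgef15, and the lymphocyte and macrophage markers with Cd72; their part was not tested.

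Flrt2, a membrane protein that binds Unc5 receptors, fell, with 30.6, 22.8 and 12.8 CPM in TKO, against 281, 201 and 144 CPM in DKO (log2 fold change -3.24, SE 0.44, adjusted p = 0.0158). No TKO tumour came near the DKO tumours. Nrp1, the co-receptor of class 3 semaphorins, had 105, 69.2 and 85.8 CPM in TKO, against 44.2, 19.4 and 25.4 CPM in DKO, and missed (adjusted p = 0.056). Vasp, an actin regulator of the Ena/VASP family, was nearly level within each group, with 132, 140 and 133 CPM in TKO and 70.7, 76.1 and 76 CPM in DKO, and also missed (log2 fold change 0.86, SE 0.22, adjusted p = 0.0646). Gpc1, a heparan sulphate proteoglycan that binds Slits, had 1339, 1088 and 2188 CPM in TKO and 563, 252 and 528 CPM in DKO (adjusted p = 0.0666), and Chn2 had 7.54, 9.74 and 14 CPM in TKO and 3.44, 3.83 and 2.2 CPM in DKO (adjusted p = 0.0838). All 4 had groups that did not overlap. Rgma, a ligand of the netrin receptor neogenin, had 45.5, 13 and 3.37 CPM in TKO and 110, 67.7 and 113 CPM in DKO (adjusted p = 0.166). Each of the 3 partner calls was lost when DKO1, DKO2 or DKO3 was left out, and that of Cd72 also without TKO2 or TKO3 and by limma-voom.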

How the data were processed

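Per the labels' protocols, libraries were made from oligo(dT)-selected RNA of about 100 mg of fresh tumour for Illumina HiSeq sequencing. The authors deposited whole-number read counts per gene for each library, with no normalization. STAR 2.6.1 and mm10 are the tool and build given per the submitters' processing notes; the gene annotation and counting options are not given in the sources used here. Counts without regard to strand were used, since the first strand column held 50.2 to 51.3% of the stranded counts, so reads of antisense and overlapping genes cannot be told apart; 17 of the 68 guidance genes share exon bases with another gene. Reads in no gene (5.33 to 9.3%), in several genes (5.1 to 6.53%), at several places (3.94 to 4.7%) or unmapped (2.53 to 3.2%) were left out.

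Gene IDs were matched to symbols, positions and exon lengths by the GENCODE annotation of GRCm38, the assembly of mm10 (55154 matched, 1042 not). Start regions came from a RefSeq table of GRCm38.p6. Genes were filtered by filterByExpr (minimum count 10, 15361 left), scaled by TMM and compared by edgeR 4.0.16's robust quasi-likelihood test with no covariate (R 4.3.3), with Benjamini-Hochberg adjustment over all genes tested and a threshold of 0.05; an adjusted p with no tool beside it is from this test. The SE comes from the log2 fold change and its F statistic. CPM are counts-per-million of total times TMM factor, and levels of different genes were compared only per kilobase of exon. The limit taken for a count of 0 was 3 counts, and the 95% interval of a ratio covers counting error only, since reads carried no molecular identifiers. Every pair of libraries differed by more than sampling noise. DESeq2 1.42.0, limma-voom (limma 3.58.1), other scalings and filters, covariates and libraries left out were alternatives.

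The guidance genes, partner lists, marker lists and motifs were chosen with earlier results of these data known, and no test was made on a list. Values per tumour were given, by rule, for genes past 0.05, for the 2 genes of each family with the highest mean CPM per kilobase in either group, for the 14 other genes with an unadjusted p under 0.05 and a log2 fold change beyond 2 either way, and for up to 4 members of each partner list with the smallest p. Neighbours, relatives and functional partners of these genes (Sema3a, Sema3e, Efna3, Plxna1, Sema4f and Sema4g) were added after their values were seen.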

Additional observations from a re-analysis of the deposited data

How the results depend on the processing

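Over the 16 alternatives, the log2 fold changes of the 19 guidance genes and 4 other genes followed through them all kept their sign wherever they could be fitted. The guidance genes and partners among them were chosen by call, or by p and size, in these same data. Their kept signs were thus largely set in advance. RLE size factors and library totals left the same 5 guidance genes called. Leaving out 1 tumour at a time gave 0 to 11 guidance genes higher in TKO and 0 to 3 lower, 0 to 8 partner genes higher and 0 to 3 lower, and 0 to 1575 of all genes higher and 0 to 810 lower. With no filter on low counts, 2 guidance genes were lower and 4 partner genes higher, where 813 of all 31330 genes were higher and 467 lower. With only genes at 1 CPM or more in both groups, 2 guidance genes (Efna1 and Sema4d) and 0 partner genes were higher in edgeR. Of all genes, 74 were higher and 84 lower. Robo4, Ephb1, Sema3d, Arhgef15 and Cd72 were under 1 CPM in every DKO tumour and did not enter this fit. At an unadjusted p under 0.05 there were 9 partner genes, against 2830 of all 13246 genes. DESeq2 and limma-voom were not run under this filter. DESeq2 called 13 guidance genes higher and 6 lower, 7 partner genes higher and 2 lower, and 1784 of all genes higher and 1109 lower. Limma-voom called 2 guidance genes lower. With sex as a covariate 1 guidance gene was lower and 4 partner genes were higher, where 780 of all 15361 genes were higher and 409 lower. In female tumours alone 11 guidance genes were higher and 2 lower, and 6 partner genes higher and 2 lower. Of all 15922 genes tested there, 1116 were higher and 534 lower. With the replicate number as a block, 2 guidance genes (Efna1 and Sema4d) and 1 partner gene were higher, and 212 of all genes were higher and 83 lower, so the calls of Robo4 (adjusted p = 0.0506), Ephb1 (0.0533) and Sema3d (0.126) were lost under the block. Deviations of same-numbered tumours from their group means correlated at -0.01, 0.01 and -0.02 across genes. No pairing by number was thus seen, but so few tumours could not exclude a weak one. Same-numbered tumours were also of the same sex. The cause of these moves was not tested, beyond the smaller number of tumours or genes that some alternatives use. Depth limits the 8 guidance genes that could not be tested and the size of the difference for Robo4 and Ephb1, which had 0 and 1 counts in DKO.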
